A study of Mus musculus with 12 samples.

Results

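Penk, Esm1 and Ifitm1 are 3 of the 18193 genes measured in splenic CD4 T cells of lupus-prone mice. They were chosen by high ratios on the arrays of cells with high PSGL1, so that pattern is described here and not tested. Each gene had 1 probe set that carried its symbol alone: 1427038_at for Penk, 1449280_at for Esm1 and 1424254_at for Ifitm1. All animals were female MRL/Faslpr mice, a strain in which the death receptor gene Fas is mutated. TCRb+ CD4+ B220- cells were sorted by CD44, by CD62L (a homing marker) and by PSGL1 (a selectin ligand encoded by Selplg). The 4 populations, with 3 arrays each, were CD62Llo PSGL1hi, CD62Lhi PSGL1hi and CD62Llo PSGL1lo cells, all CD44+ and from mice aged 16 to 24 weeks, and naive CD62Lhi CD44lo cells from mice aged 6 to 8 weeks. Age and population cannot be told apart in comparisons with naive cells.

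RNA of the gates followed the labels. Selplg had a mean ratio of 0.993 in CD62Llo PSGL1hi, 1.04 in CD62Lhi PSGL1hi, 0.133 in CD62Llo PSGL1lo and 1.10 in naive cells, and Cd44 had 1.10, 0.870 and 1.27 in the CD44+ populations in that order and 0.0791 in naive cells. CD4 T cell genes (8 measured) had a mean ratio of 1.04 to 1.14 on CD62Llo PSGL1hi and 0.870 to 0.992 on CD62Lhi PSGL1hi arrays. It was 1.01 to 1.22 on PSGL1lo and 0.77 to 0.85 on naive arrays. Between the PSGL1hi populations 2 of the 8 were higher at low CD62L, as were 0.742% of all genes. These were Cd4 (0.59 ± 0.10 on the log2 scale, SE, limma adjusted p = 0.00223) and Cd247 (0.49 ± 0.11, adjusted p = 0.028). The titles call the arrays of a population technical replicates while the design text describes 3 independent sorts, so p-values cover no more than the spread between the arrays, which may be technical. No array of a population was identical to another. For CD62Llo PSGL1hi cells the description field gives a gate that differs from the titles and design text, which were followed. All values are ratios in which 1 is the median of that probe set over the 12 arrays. They compare arrays for 1 gene, give no level of one gene against another, and carry no information on signal over background. In such bulk samples fewer cells that hold an RNA and less of it per cell cannot be told apart.

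Penk encodes proenkephalin, the precursor that proteases cut into the enkephalins, short peptides that act on opioid receptors. Besides neurons, lymphocytes can transcribe it, and in mice Penk RNA is known from regulatory T cells. Esm1 encodes endocan, a secreted proteoglycan with a dermatan sulfate chain that is best known from endothelium, where it is used as a marker of activated vessels. Human endocan binds the integrin LFA-1 (Itgal and Itgb2), which leukocytes use to hold on to ICAM proteins of other cells. Ifitm1 encodes an interferon-induced transmembrane protein, a member of a family that hinders the entry of enveloped viruses. Its gene lies in a cluster with other Ifitm genes.

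The promoters of Esm1 and of the 3 Ifitm genes whose RNA is compared below are shown because interferon elements were searched in them. Each is the stretch of 110 bases before the transcription start, from RefSeq on mouse build GRCm38.p6, read on the strand of the gene, with motif matches in capitals. The Esm1 stretch is at chr13:113209549-113209658 (plus strand), that of Ifitm1 at chr7:140967966-140968075 (plus strand), that of Ifitm2 at chr7:140955962-140956071 (minus strand) and that of Ifitm3 at chr7:141010745-141010854 (minus strand).
Esm1: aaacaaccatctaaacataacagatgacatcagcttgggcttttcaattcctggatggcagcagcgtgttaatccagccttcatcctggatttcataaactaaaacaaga
Ifitm1: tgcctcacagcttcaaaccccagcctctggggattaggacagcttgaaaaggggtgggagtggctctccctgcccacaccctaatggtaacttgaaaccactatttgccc
Ifitm2: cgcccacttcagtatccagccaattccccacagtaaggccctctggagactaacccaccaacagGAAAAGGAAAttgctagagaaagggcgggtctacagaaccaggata
Ifitm3: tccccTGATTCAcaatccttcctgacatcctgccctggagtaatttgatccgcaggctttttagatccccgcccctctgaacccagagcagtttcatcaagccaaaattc
Of 5 motifs searched on both strands over the 250 bases before the start, Esm1 and Ifitm1 held none. Ifitm2 held the core of the interferon-stimulated response element (GAAA, any 2 bases, GAAA), at positions -46 to -37 from the start, a motif in 2.98% of 32851 RefSeq promoters. Ifitm3 held an AP-1 element (TGANTCA, which reads the same on both strands and occurs in 6.75%). The other 3 motifs were the STAT gamma-activated site TTCNNNGAA (7.02%), the T-box element GGTGTGA (3.33%) and the Runx element TGTGGT (14%), which no stretch of these 4 genes held. A match or its absence describes these letters and nothing about a factor.

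Penk RNA was highest in the PSGL1hi populations, was lower in PSGL1lo cells and lower again in naive cells. Penk had ratios of 2.48, 1.58 and 2.12 on the CD62Llo PSGL1hi arrays (replicates 1 to 3). It had 1.79, 1.29 and 2.11 on the CD62Lhi PSGL1hi arrays, 0.711, 0.369 and 0.583 on the CD62Llo PSGL1lo arrays, and 0.0297, 0.0275 and 0.0243 on the naive arrays. The PSGL1hi populations overlapped each other, and both lay above every PSGL1lo array, which lay above every naive array. Replicate 2 was the lowest of the 3 in each CD44+ population. The means were 2.06 ± 0.452 in CD62Llo PSGL1hi, 1.73 ± 0.416 in CD62Lhi PSGL1hi, 0.554 ± 0.173 in CD62Llo PSGL1lo and 0.0272 ± 0.00272 in naive cells (SD, n = 3 each).

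Esm1 RNA was highest in CD62Llo PSGL1hi cells, and CD62Lhi PSGL1hi cells spread widely below them. Esm1 had ratios of 7.10, 5.98 and 7.27 on the CD62Llo PSGL1hi arrays and 1.63, 5.51 and 2.95 on the CD62Lhi PSGL1hi arrays. It had 0.345, 0.290 and 0.277 on the CD62Llo PSGL1lo arrays and 0.254, 0.370 and 0.261 on the naive arrays. The PSGL1hi populations did not overlap, but the highest CD62Lhi PSGL1hi array came within a narrow margin of the lowest CD62Llo PSGL1hi one, and PSGL1lo and naive arrays overlapped. Mean ratios were 6.78 ± 0.703, 3.36 ± 1.97, 0.304 ± 0.0361 and 0.295 ± 0.0651 in the 4 populations in the same order (SD, n = 3 each).

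Ifitm1 RNA had the same order of populations as Esm1, with arrays of replicate 3 well above the rest of their population in PSGL1hi cells. Ifitm1 had ratios of 5.97, 5.13 and 11.1 on the CD62Llo PSGL1hi arrays and 2.80, 1.74 and 5.96 on the CD62Lhi PSGL1hi arrays. It had 0.239, 0.225 and 0.260 on the CD62Llo PSGL1lo arrays and 0.227, 0.206 and 0.216 on the naive arrays. The PSGL1hi populations overlapped through replicate 3 of CD62Lhi PSGL1hi cells, and PSGL1lo overlapped naive. Mean ratios were 7.38 ± 3.21, 3.50 ± 2.19, 0.241 ± 0.0176 and 0.216 ± 0.0105 (SD, n = 3 each). Within each replicate number the CD62Llo PSGL1hi array was the higher of the pair.

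**Figure D1:**
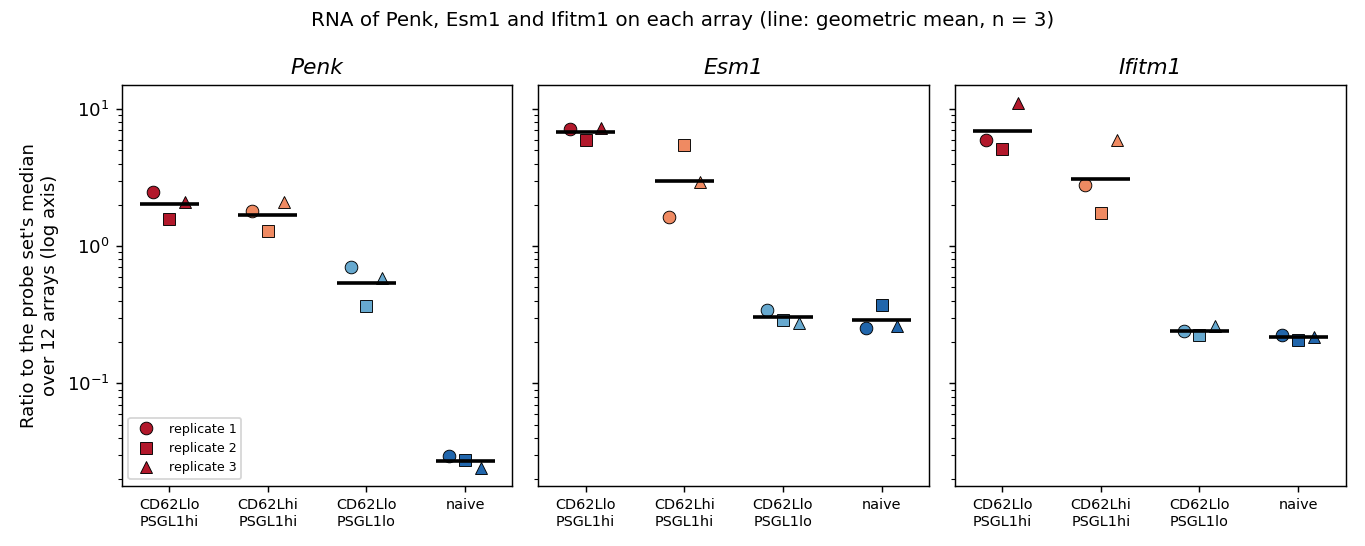
Ratio of Penk, Esm1 and Ifitm1 on each of the 12 arrays (vertical log axis, ratio to the probe set's median over 12 arrays) for the 4 sorted populations (horizontal axis); marker shapes give the replicate number and lines the geometric mean of 3 arrays. Penk falls in steps to 0.0272 in naive cells, whereas Esm1 and Ifitm1 are alike in CD62Llo PSGL1lo and naive cells and spread most in CD62Lhi PSGL1hi cells.

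The values that led to the choice of the genes are given as a description. The mean log2 ratio of the PSGL1hi arrays exceeded that of the other arrays by 4.34 for Ifitm1, 3.94 for Penk and 3.92 for Esm1, which ranked 9, 14 and 15 among 18193 genes. All 3 had every PSGL1hi array above every other array, as did 540 genes (2.97%). In CD62Llo PSGL1hi over CD62Llo PSGL1lo cells the log2 difference was 1.92 for Penk (3.78-fold), 4.48 for Esm1 (22.3-fold) and 4.85 for Ifitm1 (28.9-fold). Between CD62Lhi PSGL1hi and CD62Llo PSGL1lo cells the folds were 3.17 for Penk, 9.85 for Esm1 and 12.8 for Ifitm1. Against naive cells, CD62Llo PSGL1hi cells had 74.7-fold more Penk, 23.3-fold more Esm1 and 32.2-fold more Ifitm1. CD62Lhi PSGL1hi cells had 62.7-fold, 10.3-fold and 14.2-fold more than naive cells. These comparisons share their PSGL1lo or naive arrays. For none of the 3 genes did the arrays of the populations compared overlap, which held for 11.9% of all genes in CD62Llo PSGL1hi over CD62Llo PSGL1lo, 12.8% in CD62Lhi PSGL1hi over CD62Llo PSGL1lo, 16.8% in CD62Llo PSGL1hi over naive and 15.8% in CD62Lhi PSGL1hi over naive cells. The height of Penk over naive cells changed when the log2 ratios were quantile normalized, which gives every array the same spread of ratios. It was then 4.25 on the log2 scale in CD62Llo PSGL1hi cells instead of 6.22, and 3.66 in CD62Lhi PSGL1hi cells instead of 5.97. The same normalization widened CD62Llo PSGL1hi over CD62Llo PSGL1lo to 5.40 for Esm1 and 5.53 for Ifitm1. It was run on ratios and not on signals, so these changes do not measure how far array scaling affects the values.

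The choice did not contrast the PSGL1hi populations with each other, so low against high CD62L was tested within them, although the choice may have leaned on the CD62Llo PSGL1hi arrays. Of 18193 genes 2.17% differed there at a limma adjusted p under 0.05 (Benjamini-Hochberg, 0.742% higher and 1.42% lower). Esm1, whose arrays did not overlap (as for 6.89% of all genes in this direction), rose at low CD62L by 1.18 ± 0.29 on the log2 scale (SE; 2.27-fold; 95% interval 0.55 to 1.81; limma adjusted p = 0.0499). That call lay at the threshold: its adjusted p was 0.0155 with the replicate number as a block and 0.0423 after quantile normalization (difference 1.90), but 0.165 with only the arrays of both populations and 0.112 with a robust prior. Leaving out single arrays gave adjusted p-values between 0.000852 (without replicate 2 of CD62Lhi PSGL1hi cells, difference 1.62) and 0.161, and the call was lost without any one of the other 11 arrays. The difference was smallest, 0.74, without replicate 1 of CD62Lhi PSGL1hi cells.

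Ifitm1 had a difference of 1.18 ± 0.33 for CD62Llo PSGL1hi minus CD62Lhi PSGL1hi, with a 95% interval of 0.48 to 1.88, and did not pass (limma adjusted p = 0.091). With the replicate block it passed (adjusted p = 0.00579), as it did without replicate 3 of CD62Lhi PSGL1hi cells (1.66, adjusted p = 0.00215). Penk differed by 0.25 ± 0.22, with an interval of -0.22 to 0.73, and did not pass (adjusted p = 0.821, and 0.567 with the block). The Penk difference lay between 0.05 (without replicate 2 of CD62Lhi PSGL1hi cells) and 0.43 (without replicate 2 of CD62Llo PSGL1hi cells) when single arrays were left out, and was 0.59 after quantile normalization (adjusted p = 0.331). In CD62Lhi PSGL1hi cells the log2 SD between arrays was 0.88 for Esm1 and 0.90 for Ifitm1, against a median of 0.14 over all genes. The arrays behind these spreads differed: Esm1 was highest on replicate 2, on which Penk and Ifitm1 were lowest.

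PSGL1lo and naive cells were compared next, a contrast on which the choice of genes did not draw, and 23.2% of all genes differed there (11.1% higher, 12.1% lower). Penk rose in CD62Llo PSGL1lo over naive cells by 4.30 ± 0.22 on the log2 scale (19.8-fold; 95% interval 3.83 to 4.78; limma adjusted p = 4.36e-10), with arrays that did not overlap, as for 14% of all genes in this direction. After quantile normalization the difference was 1.97 (adjusted p = 0.00015). Esm1 differed by 0.06 ± 0.29 (interval -0.57 to 0.68; adjusted p = 0.923) and Ifitm1 by 0.16 ± 0.33 (interval -0.54 to 0.86; adjusted p = 0.803). Neither passed, and after quantile normalization both differences were below 0, at -0.65 for Esm1 and -0.66 for Ifitm1. The SE draws on 1 spread shared by all 4 populations. The log2 SD of Ifitm1 was 0.10 in PSGL1lo and 0.07 in naive cells, against 0.59 in CD62Llo PSGL1hi and 0.90 in CD62Lhi PSGL1hi cells. That of Esm1 was 0.17, 0.30, 0.15 and 0.88 in the same order. Both intervals thus reflect mostly the spread of populations outside this comparison.

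**Figure D2:**
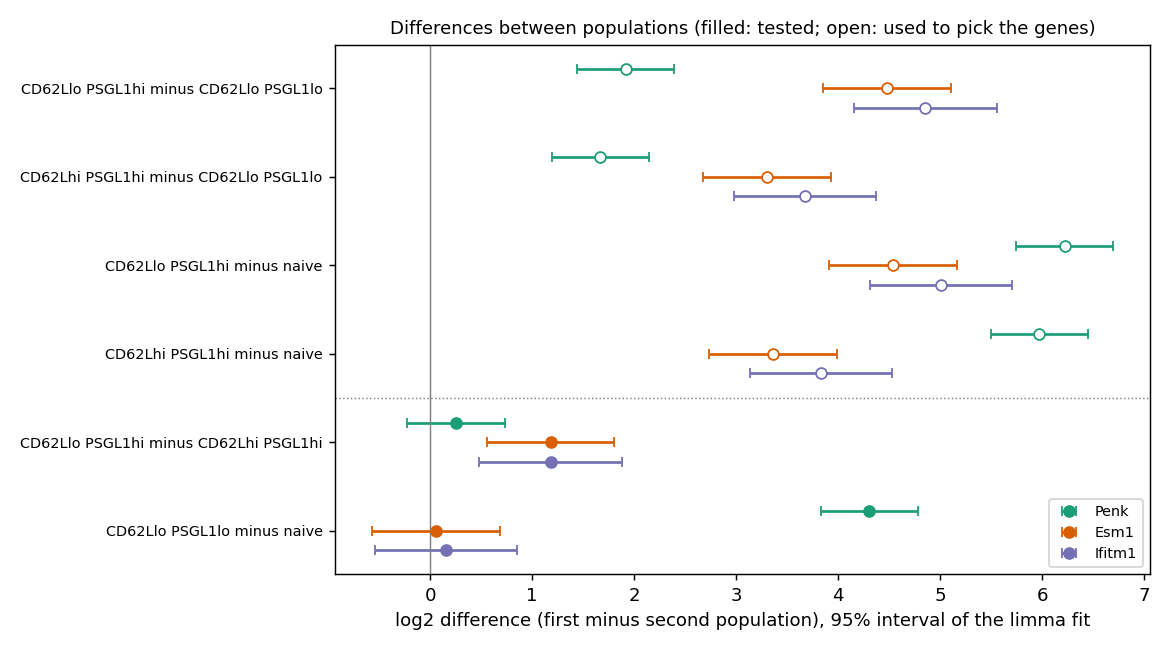
Log2 difference between populations, first minus second (horizontal axis), with the 95% interval of the limma fit for Penk, Esm1 and Ifitm1; open points are comparisons used to pick the genes and filled points are those tested. Penk is 4.30 higher in CD62Llo PSGL1lo than in naive cells, where Esm1 and Ifitm1 lie at 0.06 and 0.16.

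Other genes for opioid precursors and receptors differed little between PSGL1hi and PSGL1lo cells, where Penk was high and low. In CD62Llo PSGL1hi against CD62Llo PSGL1lo cells, where 10.8% of all genes differed (6.16% higher, 4.64% lower), none of the other 3 opioid precursor genes passed in the limma fit, and 0 had an unadjusted p under 0.05. Their differences lay between 0.00 and 0.13. Mean ratios in CD62Llo PSGL1hi, CD62Lhi PSGL1hi, CD62Llo PSGL1lo and naive cells were 1.05, 0.936, 0.961 and 1.10 for Pdyn (prodynorphin), 1.00, 0.943, 1.00 and 1.19 for Pomc (the precursor of beta-endorphin) and 0.982, 0.982, 0.968 and 1.06 for Pnoc (pronociceptin). Pomc had a difference of -0.33 for CD62Lhi PSGL1hi minus naive, which passed on this probe set and was 0.12 on the one with the highest SD. Of 5 receptor genes none passed in any of the 6 comparisons, and at an unadjusted p under 0.05 there was 1 in CD62Llo PSGL1hi minus CD62Lhi PSGL1hi and 1 in CD62Lhi PSGL1hi minus CD62Llo PSGL1lo. The delta receptor Oprd1, a main target of enkephalins, had mean ratios of 0.909, 1.18, 1.00 and 1.04. Those of the mu receptor Oprm1, the kappa receptor Oprk1, the nociceptin receptor Oprl1 and the opioid growth factor receptor Ogfr lay between 0.915 and 1.10 in every population.

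Genes that cut enkephalins free or break them down moved singly and in both directions. Of 10 measured processing genes 1 was higher and 2 were lower in CD62Llo PSGL1hi than in CD62Llo PSGL1lo cells. Among all genes 6.16% were higher and 4.64% lower, and the median was -0.01 over the list and -0.01 over all genes. Furin, a proprotein convertase, rose by 0.62 ± 0.11 (limma adjusted p = 0.00136). Ctsl, a lysosomal protease that also cuts proenkephalin, had a difference of -3.93 ± 0.36 (adjusted p = 1.35e-06), though its other probe set showed -0.01. Cpd, a carboxypeptidase, had -0.75 ± 0.19 (adjusted p = 0.0131), and none of its 6 other probe sets passed. The Cpd call was lost without replicate 1 or 3 of CD62Llo PSGL1hi cells or replicate 3 of PSGL1lo cells (adjusted p 0.0567 to 0.0649). Of 6 breakdown genes Ece1, a membrane metalloprotease, was lower (-0.81 ± 0.18, adjusted p = 0.00655; -0.52 and adjusted p = 0.309 after quantile normalization). Between PSGL1lo and naive cells, where Penk rose, 3 processing genes were higher and 3 lower (11.1% and 12.1% of all genes). Cpd was 2.09 ± 0.19, Ctsl 2.61 ± 0.36 and the convertase Pcsk1 0.83 ± 0.13 higher, and Scg5, a chaperone of convertase PC2, was lower at -1.60 ± 0.20. There the other Ctsl probe set showed -0.05. The other Cpd probe sets ranged from -0.16 to 3.11, and only some of them passed.

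Because Penk is known from regulatory T cells and neuroendocrine cells, their markers are given beside it. Of 10 regulatory T cell genes 4 were higher and none lower in CD62Llo PSGL1hi than in CD62Llo PSGL1lo cells (6.16% and 4.64% of all genes). Among the 4 were the lineage factor Foxp3 (3.74 ± 0.17, adjusted p = 3.36e-10) and the integrin chain Itgae (4.12 ± 0.21). The mean ratio of the list ran from 1.21 to 1.50 on the CD62Llo PSGL1hi arrays, 1.19 to 1.40 on the CD62Lhi PSGL1hi arrays, 0.765 to 0.866 on the PSGL1lo arrays and 0.643 to 0.712 on the naive arrays. Between PSGL1lo and naive cells, where Penk rose, 6 of the 10 were higher and 2 lower (11.1% and 12.1% of all genes). The higher ones included the receptor Nrp1 (3.92 ± 0.11, adjusted p = 1.51e-12), the inhibitory receptor Ctla4 (3.18 ± 0.13, adjusted p = 4.22e-11) and the cytokine subunit Ebi3 (2.61 ± 0.24, adjusted p = 3.62e-07). Foxp3 (-1.42 ± 0.17) and the receptor Gpr83 (-1.50 ± 0.11) were lower, and Il2ra did not pass on the probe set used but had -2.47 on another (adjusted p = 2.98e-09). The part of regulatory T cells in the Penk result was not tested. Of 6 neuroendocrine genes only the synaptic vesicle gene Syp was higher in CD62Llo PSGL1hi than in PSGL1lo cells (0.51 ± 0.14, adjusted p = 0.0282; lost without any one of 4 arrays, with adjusted p 0.0712 to 0.150). Ratios give no true zero, so whether defining markers were absent cannot be read from them.

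Around Esm1, single genes of chondroitin and dermatan sulfate synthesis differed between PSGL1hi and PSGL1lo cells in both directions, and Chsy1 differed most. Chsy1 encodes a synthase that extends the chondroitin backbone from which dermatan sulfate is made. It had ratios of 2.68, 1.97 and 2.61 on the CD62Llo PSGL1hi arrays and 2.40, 1.91 and 1.77 on the CD62Lhi PSGL1hi arrays, against 0.228, 0.157 and 0.207 on the CD62Llo PSGL1lo arrays and 0.194, 0.177 and 0.193 on the naive arrays. Every PSGL1hi array lay far above every other array, also above the naive ones, in which Selplg RNA was high (mean ratio 1.10). Chsy1 rose by 3.62 ± 0.15 in CD62Llo PSGL1hi over CD62Llo PSGL1lo cells (limma adjusted p = 1.65e-10) and by 3.37 ± 0.15 in CD62Lhi PSGL1hi over CD62Llo PSGL1lo cells, where 14.9% of all genes differed (8.16% higher, 6.76% lower). Chsy1 was 10th among all genes in its likeness to Ifitm1 over the 12 arrays (r = 0.968). Of the 20 measured genes of the list, 3 were higher and 2 lower in CD62Llo PSGL1hi than in CD62Llo PSGL1lo cells (6.16% and 4.64% of all genes). The median was 0.07 against -0.01 over all genes. Dse, the epimerase that turns chondroitin into dermatan sulfate, rose by 1.01 ± 0.15 (adjusted p = 0.000219). Chst15, a sulfotransferase, had -1.05 ± 0.15 (adjusted p = 0.000107) and Csgalnact1, which starts the chain, -0.81 ± 0.14 (adjusted p = 0.000763). On the probe sets used, none of the 20 genes passed in the limma fit between the PSGL1hi populations, where 5 had an unadjusted p under 0.05. The other Csgalnact1 probe set passed there, with 1.01 for CD62Llo PSGL1hi minus CD62Lhi PSGL1hi (adjusted p = 0.0287 over all probe sets), and had -1.48 against PSGL1lo cells (adjusted p = 0.000314).

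Other proteoglycan genes moved singly. Of 12 core protein genes, 2 were higher and 1 lower in CD62Llo PSGL1hi than in CD62Llo PSGL1lo cells (6.16% and 4.64% of all genes). They were the syndecan Sdc4 (1.36 ± 0.23), agrin (Agrn, 0.76 ± 0.11) and the testican Spock2 (-0.68 ± 0.12). The other Agrn probe set showed -0.03. Between the PSGL1hi populations Sdc1, the syndecan also known from plasma cells, was lower in CD62Llo PSGL1hi cells (-1.26 ± 0.15, adjusted p = 0.000148). Agrn was the 1 of the 12 that was higher there (0.76 ± 0.11, adjusted p = 0.00077), with -0.08 on its other probe set. Of the 5 genes of LFA-1 and its ligands, Icam1 rose by 1.07 ± 0.15 in CD62Llo PSGL1hi over CD62Llo PSGL1lo cells (adjusted p = 0.000146). Itgb2 rose by 0.46 ± 0.12 (adjusted p = 0.0178), a call lost without replicate 1 of CD62Llo PSGL1hi or replicate 2 of PSGL1lo cells (adjusted p = 0.0983 and 0.0667). Itgal had mean ratios of 1.06, 0.915, 1.11 and 0.355 in the 4 populations and thus differed between CD44+ and naive cells, by 1.58 ± 0.10 for CD62Llo PSGL1hi minus naive (adjusted p = 4.75e-09; 20.7% of all genes differed there). Icam2 and F11r (JAM-A) did not pass between CD62Llo PSGL1hi and CD62Llo PSGL1lo cells.

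None of 14 endothelial genes was higher in CD62Llo PSGL1hi than in CD62Llo PSGL1lo cells. The 14 endothelial genes had a mean ratio of 0.963 to 0.994 on the CD62Llo PSGL1hi arrays, 0.972 to 1.08 on the CD62Lhi PSGL1hi arrays, 0.980 to 1.01 on the PSGL1lo arrays and 1.02 to 1.07 on the naive arrays. Kdr, a VEGF receptor, was the only one to pass there, and it was lower (-0.41 ± 0.10, adjusted p = 0.0108). In CD62Lhi PSGL1hi over CD62Llo PSGL1lo cells the vessel matrix gene Mmrn2 rose by 0.87 ± 0.15 (adjusted p = 0.000718). Of 7 stromal genes none passed in any of the 6 comparisons, and 0 had an unadjusted p under 0.05 in any.

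On chromosome 13 the nearest measured neighbours of Esm1 in RefSeq order on one side are Gzmk and Gzma, which encode granzymes, proteases of cytotoxic granules. Gzmk had mean ratios of 2.08 ± 0.153 in CD62Llo PSGL1hi, 2.02 ± 0.136 in CD62Lhi PSGL1hi, 0.0795 ± 0.00776 in CD62Llo PSGL1lo and 0.0284 ± 0.00574 in naive cells (SD, n = 3 each). It rose by 4.71 ± 0.13 in CD62Llo PSGL1hi over CD62Llo PSGL1lo cells (adjusted p = 2.11e-12). Gzmk differed by 0.04 ± 0.13 between the PSGL1hi populations (adjusted p = 0.970) and rose by 1.50 ± 0.13 in PSGL1lo over naive cells (adjusted p = 2.23e-07). Gzma had 1.16, 1.62, 0.238 and 1.03 in the 4 populations, so that naive cells stood with PSGL1hi cells, and it was 2.21 ± 0.24 higher in CD62Llo PSGL1hi than in PSGL1lo cells (adjusted p = 8.11e-06). On the other side Snx18, a sorting nexin, rose by 0.89 ± 0.16 in that comparison (adjusted p = 0.00101), and 4921509O07Rik stayed near a ratio of 1 in every population. The neighbours of Penk on chromosome 4 were nearly level by comparison. Bpnt2, a Golgi phosphatase, rose by 0.66 ± 0.17 (adjusted p = 0.0177), and Sdr16c5, Sdr16c6 and 4930423M02Rik did not pass.

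**Figure D3:**
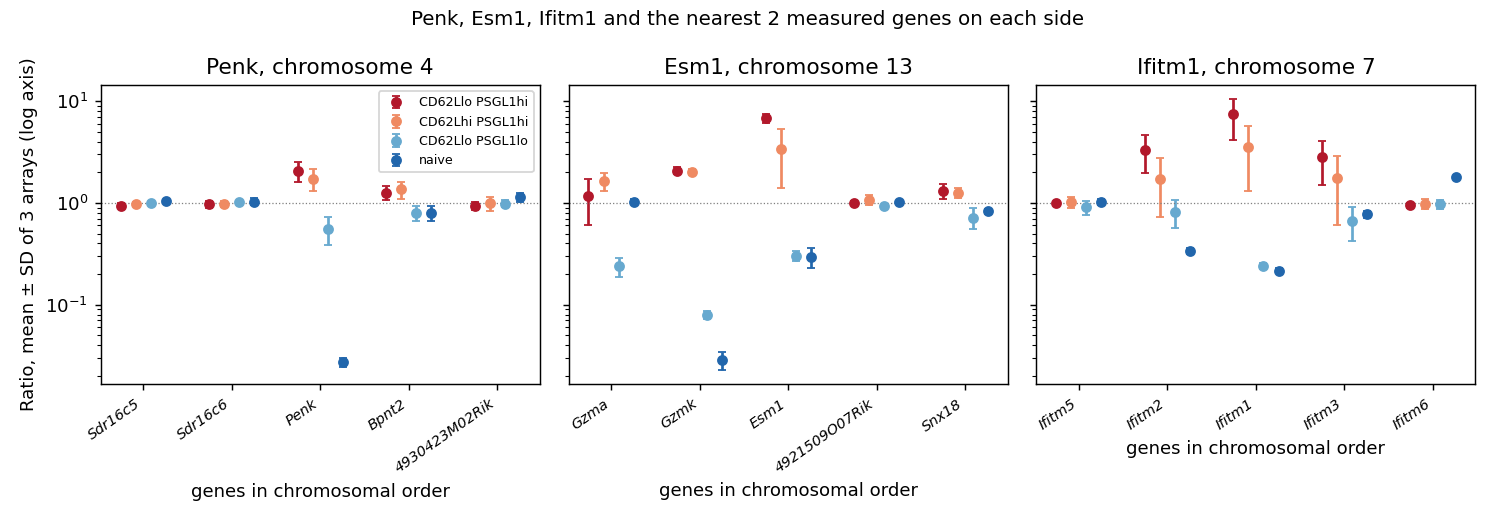
Mean ratio ± SD of 3 arrays (vertical log axis) of Penk, Esm1, Ifitm1 and the nearest 2 measured genes on each side, in chromosomal order (horizontal axis), by population. Gzmk beside Esm1, and Ifitm2 and Ifitm3 beside Ifitm1, are also high in PSGL1hi cells, while the genes around Penk stay between 0.795 and 1.36.

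Ifitm1 lies between Ifitm2 and Ifitm3, and RNA of both was also high in PSGL1hi cells, with smaller differences. Ifitm2 had ratios of 2.58, 2.48 and 4.85 on the CD62Llo PSGL1hi arrays and 1.36, 0.957 and 2.87 on the CD62Lhi PSGL1hi arrays, against 0.874, 0.544 and 1.04 on the PSGL1lo arrays and 0.331, 0.359 and 0.319 on the naive arrays. Ifitm3 had 2.21, 1.91 and 4.27 on the CD62Llo PSGL1hi arrays, 1.10, 1.07 and 3.06 on the CD62Lhi PSGL1hi arrays, 0.927, 0.444 and 0.621 on the PSGL1lo arrays and 0.850, 0.724 and 0.743 on the naive arrays. All 3 genes were highest on replicate 3 and lowest on replicate 2 in both PSGL1hi populations. Their correlation with Ifitm1 over the 12 arrays was 0.917 for Ifitm2 and 0.909 for Ifitm3, ranks 86 and 103 among all genes. The probe sets target related sequences, and cross-hybridisation between them was not tested.

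Of the 6 other measured Ifitm genes, 3 were higher and none lower in CD62Llo PSGL1hi than in CD62Llo PSGL1lo cells: Ifitm3 by 2.05 ± 0.36 (limma adjusted p = 0.00102), Ifitm2 by 1.99 ± 0.33 (adjusted p = 0.000617) and Ifitm10 by 1.38 ± 0.15 (adjusted p = 9.18e-06). In CD62Lhi PSGL1hi against CD62Llo PSGL1lo cells Ifitm10 rose by 1.01 ± 0.15 and Ifitm3 by 1.27 ± 0.36 (adjusted p = 0.0242), a call of Ifitm3 lost without replicate 3 of CD62Lhi PSGL1hi cells or replicate 2 or 3 of PSGL1lo cells (adjusted p 0.0689 to 0.108). Ifitm2 differed there by 0.97 ± 0.33 and passed only with the replicate block (adjusted p = 0.00438) or without replicate 2 of CD62Lhi PSGL1hi or replicate 3 of CD62Llo PSGL1hi cells. Within PSGL1hi cells Ifitm2 was 1.02 ± 0.33 and Ifitm3 0.77 ± 0.36 higher at low CD62L, neither passing. As with Ifitm1, the difference of Ifitm2 passed with the block (adjusted p = 0.0137). Ifitm6 was instead highest in naive cells, with a difference of -0.91 ± 0.11 for CD62Llo PSGL1hi minus naive (adjusted p = 8.31e-06), and Ifitm5 and Ifitm7 did not pass in any comparison.

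Interferon response genes were in part higher in PSGL1hi than in PSGL1lo cells, but most were lower than in naive cells, where Ifitm1 was lowest. Of 25 measured genes 9 were higher and none lower in CD62Llo PSGL1hi than in CD62Llo PSGL1lo cells (6.16% and 4.64% of all genes). The median was 0.26 against -0.01 over all genes. The list was led by Ifit3 (2.17 ± 0.16, adjusted p = 7.55e-08), Ifit2 (0.81 ± 0.10), Ifit1 (1.12 ± 0.15) and the signal transducer Stat2 (0.63 ± 0.12). Ifit proteins bind viral RNA or block its translation. Against naive cells only 1 was higher and 15 were lower in CD62Llo PSGL1hi cells (median -0.60 against -0.06 over all genes; 10.8% of all genes were higher and 9.94% lower). Oas2, which senses double-stranded RNA, had -3.85 ± 0.20 (adjusted p = 5.72e-10), Usp18, a brake on interferon signalling, -2.88 ± 0.23, and Ifit3 -1.63 ± 0.16. In CD62Lhi PSGL1hi against naive cells, where 10.6% of all genes were higher and 10.1% lower, the counts were also 1 higher and 15 lower. CD62Llo PSGL1lo cells had 19 of the 25 lower and none higher than naive cells (12.1% and 11.1% of all genes), with Ifit3 at -3.81 ± 0.16. Between the PSGL1hi populations none of the 25 passed in the limma fit, 3 had an unadjusted p under 0.05, and their differences lay between -0.51 and 0.42.

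**Figure D4:**
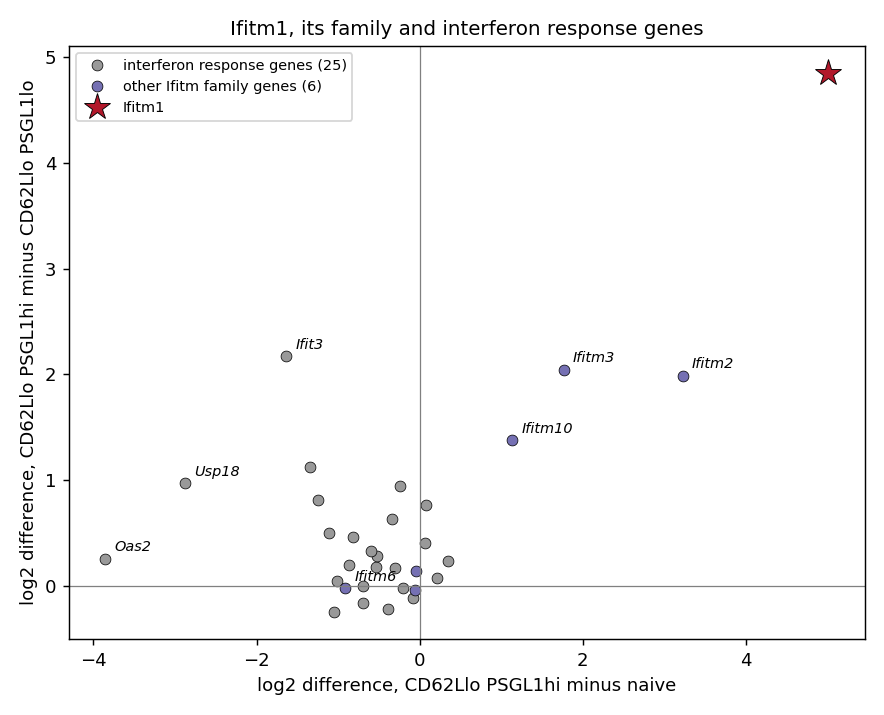
Log2 difference of CD62Llo PSGL1hi minus CD62Llo PSGL1lo (vertical axis) against CD62Llo PSGL1hi minus naive (horizontal axis) for Ifitm1, 6 other Ifitm genes and 25 interferon response genes; both axes share the CD62Llo PSGL1hi arrays. Ifitm1 lies at 5.01 and 4.85, while most interferon response genes lie left of 0 on the horizontal axis.

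Receptors and kinases upstream of the interferon response were in part higher in PSGL1hi than in PSGL1lo cells. Of 7 genes 3 were higher and none lower in CD62Llo PSGL1hi than in CD62Llo PSGL1lo cells: the interferon gamma receptor chain Ifngr1 (1.77 ± 0.13, adjusted p = 8.77e-08), the type I receptor chain Ifnar1 (0.59 ± 0.11) and the kinase Tyk2 (0.48 ± 0.10). Second probe sets did not pass for Ifnar1 (0.45, adjusted p = 0.0609) or Tyk2 (0.03, adjusted p = 0.949). The other gamma receptor chain, Ifngr2, was lower in CD62Llo PSGL1hi than in naive cells (-1.19 ± 0.12, adjusted p = 1.21e-06). Tetraspanins, with which IFITM1 associates in human lymphocytes, did not pass in CD62Llo PSGL1hi against PSGL1lo cells for any of 6 genes, 1 of which had an unadjusted p under 0.05. Against naive cells 3 were higher, with Cd82 at 1.81 ± 0.12, Cd81 at 0.79 ± 0.18 and Cd9 at 0.45 ± 0.14. The Cd9 call was lost without replicate 1 or 2 of CD62Llo PSGL1hi cells or replicate 2 or 3 of naive cells (adjusted p 0.0746 to 0.166).

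Klrd1, a receptor chain of NK and cytotoxic T cells, was likewise higher in PSGL1hi than in PSGL1lo cells, and naive arrays overlapped the CD62Lhi PSGL1hi ones. It had ratios of 4.21, 1.89 and 4.60 on the CD62Llo PSGL1hi arrays and 1.31, 0.662 and 1.41 on the CD62Lhi PSGL1hi arrays, against 0.146, 0.126 and 0.143 on the PSGL1lo arrays and 1.09, 0.819 and 0.914 on the naive arrays. It rose by 1.63 ± 0.29 in CD62Llo PSGL1hi over CD62Lhi PSGL1hi cells (adjusted p = 0.00531) and, like Ifitm1, was lowest on replicate 2 of both. The list of 5 NK and CD8 T cell genes had 2 higher and none lower in CD62Llo PSGL1hi than in PSGL1lo cells (6.16% and 4.64% of all genes). Mean ratios of the list were 1.12 to 1.76 on CD62Llo PSGL1hi, 0.948 to 1.14 on CD62Lhi PSGL1hi, 0.686 to 0.788 on PSGL1lo and 1.09 to 1.30 on naive arrays. Cd8a did not pass in CD62Llo PSGL1hi against CD62Llo PSGL1lo cells and was lower than in naive cells (-0.57 ± 0.10, adjusted p = 0.000454). The part of such cells in the Ifitm1 and Esm1 results was not tested. Of 10 myeloid genes 2 were higher and 4 lower in CD62Llo PSGL1hi than in naive cells (10.8% and 9.94% of all genes). The mean ratio of the 10 myeloid genes ran from 0.776 to 1.22 on the CD44+ arrays and from 3.34 to 3.58 on the naive arrays, where it was carried by the neutrophil genes S100a9 (-3.89 ± 0.19, adjusted p = 2.97e-10) and S100a8 (-3.76 ± 0.29, adjusted p = 7.15e-08). The macrophage marker Cd68 went the other way, with mean ratios of 1.67, 2.71, 0.481 and 0.206 in the 4 populations. Cd68 rose by 1.79 ± 0.16 in CD62Llo PSGL1hi over CD62Llo PSGL1lo cells (adjusted p = 6.39e-07), the 1 gene of the list to pass there, and by 3.02 ± 0.16 over naive cells (adjusted p = 5.46e-10). The part of myeloid cells in the results for Penk, Esm1 and Ifitm1 was not tested. Of 8 B cell genes 2 were higher and none lower in CD62Llo PSGL1hi than in CD62Llo PSGL1lo cells (6.16% and 4.64% of all genes). The 2 were Ms4a1 (1.51 ± 0.26, adjusted p = 0.00068) and Cd79b (1.03 ± 0.11, adjusted p = 4.14e-06). Whether B cells had a part in the results for Penk, Esm1 and Ifitm1 was not tested. In the same comparison none passed of 5 dendritic cell genes and 6 erythroid and platelet genes, of which 1 and 0 had an unadjusted p under 0.05.

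Over the 12 arrays, Esm1 and Ifitm1 resembled each other more than either resembled Penk. The correlation of log2 ratios was 0.953 between Esm1 and Ifitm1, 0.790 between Penk and Ifitm1 and 0.764 between Penk and Esm1. These values describe 12 arrays that fall into 4 populations, so they mostly reflect population means. Over the 9 CD44+ arrays alone they were 0.934, 0.948 and 0.888, so that without the naive arrays Penk stood as near to Ifitm1 as Esm1 did. Of the 50 genes most like each over all 12 arrays, Esm1 and Ifitm1 shared 32 (64% of each list), and Penk shared 0 with either. This overlap was not counted over the 9 CD44+ arrays, where Lrrn4 was among the 5 closest to both Penk and Ifitm1.

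The 5 genes most like Penk fell to their lowest in naive cells and were lower in PSGL1lo than in PSGL1hi cells. They were Rnf43, a ubiquitin ligase that dampens Wnt signalling (r = 0.998), the lysosomal peptide transporter Slc15a3 (0.994), the protease inhibitor cystatin F (Cst7, 0.994), the actin-capping Capg (0.994) and the calcium-binding S100a6 (0.993). Rnf43 had mean ratios of 1.36, 1.27, 0.725 and 0.167 in the 4 populations, and S100a6 had 1.65, 1.50, 0.478 and 0.0373. A second Capg probe set showed 0.21 for CD62Llo PSGL1lo minus naive (limma adjusted p = 0.321 over all probe sets), against 2.78 on the one used. None of the 5 was among the 5 most like Penk over the 9 CD44+ arrays or by Spearman's correlation. Over the 9 arrays they ranked 6 to 83, and 2 of the 5 stayed among the closest 50.

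The 5 genes most like Esm1 were highest in CD62Llo PSGL1hi cells. They were the chemokine receptor Ccr2 (0.983), the death ligand Fasl (0.978), the inhibitory receptor TIM-3 (Havcr2, 0.976), the Rab11 effector Rab11fip4 (0.975) and the lysosomal transporter Slc46a3 (0.973). Ccr2 had mean ratios of 4.70, 2.01, 0.228 and 0.210 in the 4 populations, and Havcr2 had 3.70, 2.25, 0.215 and 0.151. Those most like Ifitm1 were Ctla2b, which resembles the propeptide of cysteine proteases (0.994), the inhibitory receptor Klrg1 of effector T and NK cells (0.984), Nbeal2, needed for platelet granules (0.980), the coagulation-related and immunosuppressive Fgl2 (0.978) and the laminin chain Lamc1 (0.977). Ctla2b had mean ratios of 3.77, 2.31, 0.255 and 0.273, and Klrg1 had 2.74, 2.38, 0.205 and 0.186. Second probe sets of Nbeal2 and Lamc1 showed 0.15 and -0.06 for CD62Llo PSGL1hi minus CD62Llo PSGL1lo, against 1.57 and 1.17 on the ones used. Other Rab11fip4 probe sets showed 0.15 and 0.59 in this comparison, against 1.16. Over the 9 CD44+ arrays 1 of the 5 most like Ifitm1 (Ctla2b) and 0 of those most like Esm1 stayed among the closest 5. All 5 of each stayed among the closest 50, at ranks 1 to 12 for Ifitm1 and 6 to 23 for Esm1.

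**Figure D5:**
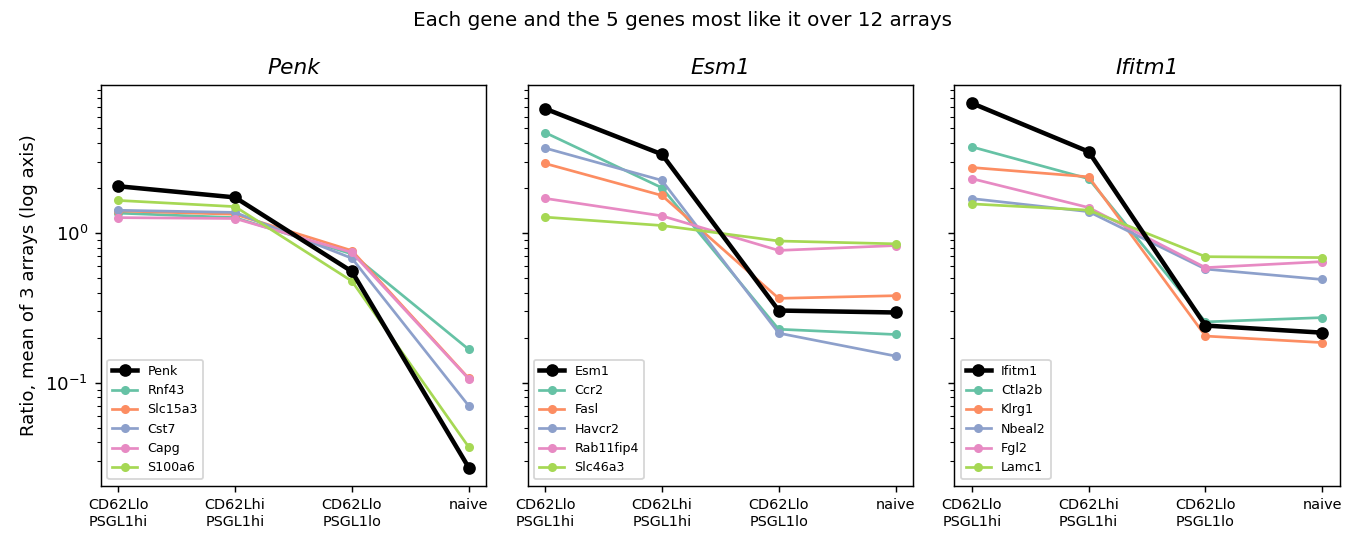
Mean ratio of 3 arrays (vertical log axis) by population (horizontal axis) for Penk, Esm1 and Ifitm1 (black) and the 5 genes most like each by Pearson correlation of log2 ratios over 12 arrays. The genes chosen with Penk fall between CD62Llo PSGL1lo and naive cells. Those chosen with Esm1 and Ifitm1 are nearly level there, apart from Havcr2 (log2 difference 0.50).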

How the data were processed

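Each of 4 sorted populations was hybridised to 3 Affymetrix mouse arrays. The deposited values are linear ratios: MAS5 made the signals, per the submitters' processing notes (version and target: not given in the sources used here). Each probe set appears divided by its median over 12 arrays (a median within 0.002 of 1 for 99.7% of 45101 probe sets). Array medians were 0.967 to 1.022 and were left unscaled. Platform annotation gave 1 symbol to 34945 probe sets, several to 932 and was not listed for 9160, and 64 were controls. For each of 18193 genes 1 probe set was kept, preferring an ID free of the cross-hybridisation suffixes, then a curated RefSeq target, then the lowest number, and 18032 genes matched RefSeq with 0 symbols changed. Chromosomal order came from RefSeq.

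Log2 ratios were fitted in R 4.3.3 by limma 3.58.1 (lmFit, eBayes without trend), with 1 mean per population, two-sided tests and Benjamini-Hochberg adjustment over 18193 genes at 0.05. The fit gave each gene 1 spread shared by all 4 populations. There were 8 residual and 7.31 prior degrees of freedom, and the median SE was 0.118. The number of arrays limits the precision. The fit was tested on simulated data. Deviations of arrays with the same replicate number correlated above 0.1 for every pair of CD44+ populations (0.109 to 0.456) and from -0.132 to 0.215 with naive arrays, so blocked values are given for CD44+ populations where a call changes. The genes described and all gene lists were chosen with earlier results of these data known. Genes named were Penk, Esm1, Ifitm1, the gate genes, the 5 genes most like each by Pearson correlation, the nearest 2 measured neighbours on each side, all members of the opioid precursor, opioid receptor, LFA-1 and Ifitm lists, and up to 4 genes of each other list with the smallest p. Genes named outside this rule after their values were seen are Cd8a and Chsy1 beside Ifitm1, and Foxp3 and Il2ra between PSGL1lo and naive cells. Lrrn4, named for its likeness over the 9 CD44+ arrays, is a further one. Alternatives were quantile normalization of the log2 ratios, median centring, all probe sets and the probe set with the highest SD. Further ones were only 2 populations, a robust prior, the replicate block and leaving out each array.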

Additional observations from a re-analysis of the deposited data

How the results depend on the processing

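The number of genes called stayed within 1.5 times in every comparison and setting run; for CD62Llo PSGL1hi minus CD62Lhi PSGL1hi it was 394, and 591 with the replicate block. The difference of Esm1 between these populations kept its direction and lost its call with all probe sets (1.18, adjusted p = 0.108), with each gene's most variable probe set (1.18, 0.0638), with only the arrays of both populations (1.18, 0.165) and with a robust prior (1.18, 0.112), and ranged from 0.74 to 1.62 when single arrays were left out; after quantile normalization it was 1.90 (0.0423). The difference of Ifitm1 was gained with quantile normalization (1.73, adjusted p = 0.0231), with the replicate block (1.18, 0.00579) and with the block in the 9 CD44+ arrays (1.18, 0.00274, a setting added after seeing the data), and ranged from 0.77 to 1.66 when single arrays were left out. The pairing by replicate number changed no call of Penk or Esm1. Of 317 results for list genes 257 kept direction and call in every setting, and 1 reversed: Pomc in CD62Lhi PSGL1hi minus naive cells, -0.33 on the probe set used and 0.12 on that with the highest SD. Quantile normalization made the most list calls weaker (28); the cause was not tested. Signal over background is unknown for ratios.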
